A study of Mus musculus with 7 samples.

Results

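The ADAM and ADAMTS genes encode metalloproteases and their close relatives, and 33 of them were measured among 22180 genes on 1-colour arrays of mouse digit tissue. They were taken by their symbols, as every numbered Adamts and Adamts-like (Adamtsl) symbol together with Adam8, Adam9, Adam10, Adam12, Adam15, Adam17, Adam19, Adam22, Adam23 and Adam33. Adamts2 was not analysed here. The study compared blastemas, the cell masses that rebuild an amputated digit tip, taken 2 weeks after amputation (n = 3), with uninjured digits (n = 4). All mice were C57Bl/6, the labels name no transgene or drug, and they describe each array as a separate biological replicate without giving age, sex or pooling. Levels are log2 values made by RMA (robust multi-array average), in which background is removed, arrays are brought to a common scale and the probes of a set are combined. A difference of 1 is therefore a doubling of the array signal.

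ADAM proteins sit in the cell membrane, where the active ones cut the outer part off neighbouring membrane proteins such as growth factor precursors and Notch receptors. ADAMTS proteins are secreted and are held in the extracellular matrix by thrombospondin repeats. Single ADAMTS enzymes are known for cutting proteoglycans such as aggrecan and versican, for trimming procollagens, or for cutting cartilage oligomeric matrix protein (COMP), and ADAMTS-like proteins share the matrix-binding repeats but lack the protease domain. In developing mouse limbs, versican-cutting members take part in removing the web between the digits.

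Of the 33 genes, 7 were higher in the blastema and 1 was lower. The 7 were Adamts12, Adam12, Adamts9, Adamts18, Adamts6, Adam8 and Adamts7, with fold changes between 1.54 and 4.61, and the gene that fell was Adamtsl1. The test was limma over all 22180 genes, called at a Benjamini-Hochberg adjusted p under 0.05, which called 21.2% of the ADAM and ADAMTS genes higher and 3.03% lower, against 4.98% and 4.66% of all genes (9.64% in either direction). At an unadjusted p under 0.05 there were 15 of the 33 genes, against 24.9% of all genes. The median log2 fold change of the 33 genes was 0.19, and that of all genes was -0.01. Blastema levels lay above every uninjured level in 11 of the 33 genes and below every uninjured level in 1, against 10.4% and 10.6% of all genes (21.0% in either direction). In tissue RNA, more cells of a type and more RNA per cell cannot be told apart.

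The largest change was that of Adamts12, which encodes a secreted protease that cuts COMP. Its log2 levels were 7.92, 8.80 and 8.92 in the 3 blastemas, against 6.47, 6.39, 6.26 and 6.25 in the 4 uninjured digits. The groups were separated by 1.45, and blastema 1 was the lowest of its group. The log2 fold change was 2.21 ± 0.23 (SE), or 4.61-fold (limma adjusted p = 0.00304), which ranked 54 among all 22180 genes from the largest rise down. Adamts7, the other COMP-cutting member, lay at 5.95, 5.86 and 5.98 in blastemas and at 5.41, 4.96, 5.42 and 5.44 in uninjured digits. All blastema values were higher, although the uninjured mean of 5.31 was below 5.52, the background level taken from olfactory receptor genes. The log2 fold change of Adamts7 was 0.62 ± 0.13 (SE), or 1.54-fold (limma adjusted p = 0.0254). Both COMP-cutting genes thus rose. Their substrate gene Comp measured 7.36, 6.93 and 7.88 in blastemas and 5.87, 7.81, 6.15 and 7.79 in uninjured digits. The uninjured values lay both below and within the blastema range, with an SD of 1.04. The Comp difference was 0.48 ± 0.54 (SE, 95% interval -0.79 to 1.76, limma adjusted p = 0.633). This interval holds the 0.62 of Adamts7 but not the 2.21 of Adamts12, so a Comp rise as large as that of Adamts7 was not excluded.

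Adam12 encodes a membrane protease of mesenchymal and muscle precursor cells that cuts insulin-like growth factor binding proteins. It measured 7.49, 7.75 and 7.89 in blastemas, against 5.93, 5.96, 5.77 and 5.76 in uninjured digits. The gap of 1.54 between the groups was the widest of the 33 genes, and each group was tightly spaced, with SDs of 0.20 in blastemas and 0.11 in uninjured digits. The log2 fold change was 1.86 ± 0.11 (SE), or 3.63-fold (limma adjusted p = 0.00122), and its p-value ranked 4 among all 22180 genes. Adam8, a membrane protease of myeloid cells and osteoclasts, measured 6.02, 6.39 and 6.38 in blastemas and 5.31, 5.76, 5.52 and 5.76 in uninjured digits. The groups did not overlap, with a gap of 0.25. The log2 fold change of Adam8 was 0.67 ± 0.14 (SE), or 1.60-fold (limma adjusted p = 0.0294).

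Adamts9, which cuts versican and aggrecan, was the 1 proteoglycan-cutting gene that passed the test. Its levels were 7.60, 7.84 and 7.93 in blastemas, against 6.31, 6.35, 5.87 and 6.35 in uninjured digits. All blastema values exceeded all uninjured values by 1.24 or more, and uninjured digit 3 was the lowest. The rise was 1.57 ± 0.14 on the log2 scale (SE), or 2.97-fold (limma adjusted p = 0.00206).

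Adamts18 and Adamts6 also rose, both from the set of ADAMTS proteases that lack a well settled substrate or associate with fibrillin microfibrils. Adamts18 measured 5.35, 5.99 and 5.61 in blastemas and 4.55, 4.27, 4.77 and 4.76 in uninjured digits. Every uninjured value of Adamts18 lay below the olfactory receptor background level of 5.52, and so did blastema 1, so the size of its change rests on dim signal. Its log2 fold change was 1.06 ± 0.18 (SE, limma adjusted p = 0.0126), while Adamts16, its closest relative, differed by 0.07 (95% interval -0.10 to 0.23, adjusted p = 0.601). Adamts6, which is needed for heart and skeletal development in mice, measured 6.74, 7.14 and 7.58 in blastemas and 5.87, 6.35, 5.93 and 6.37 in uninjured digits. Blastema 1 again lay closest to the uninjured digits. The log2 fold change of Adamts6 was 1.02 ± 0.22 (SE, limma adjusted p = 0.0291).

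Adamtsl1 encodes punctin, a secreted matrix glycoprotein with thrombospondin repeats and no protease domain. It was the single gene of the 33 that fell. Its levels were 6.28, 6.41 and 6.54 in blastemas, against 7.60, 7.24, 7.17 and 7.12 in uninjured digits. The groups were 0.58 apart, with uninjured digit 1 the highest. The difference was -0.87 ± 0.13 on the log2 scale (SE), or 1.83-fold lower in blastema (limma adjusted p = 0.00809).

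**Figure D1:**
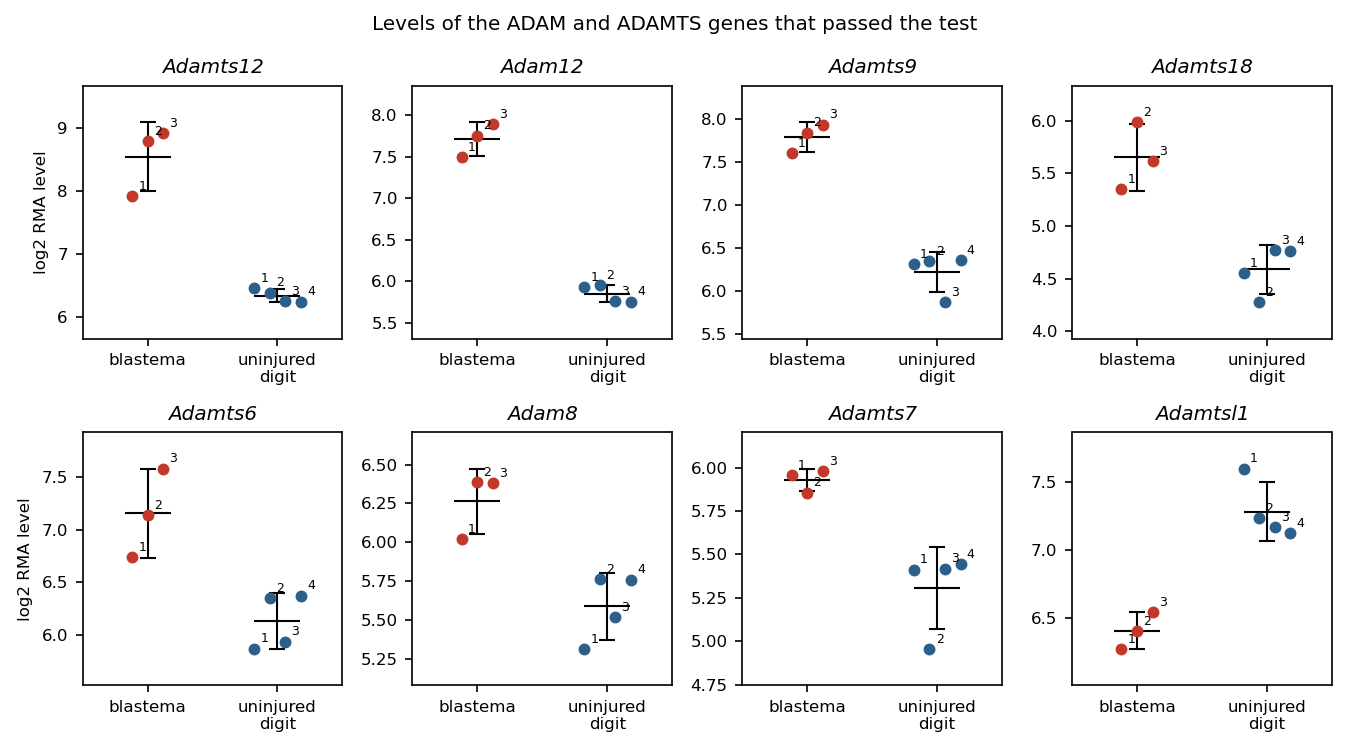
Log2 RMA levels (vertical axis, a separate scale for each gene) of the 8 genes that passed the test, in 3 blastemas (red, left) and 4 uninjured digits (blue, right). Points are arrays with their replicate number, and bars give the mean ± SD. The groups do not overlap for any of the 8 genes, and blastema 1 is the lowest blastema for 6 of the 7 genes that rose.

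Across the 7 genes that rose, blastema 1 gave the lowest blastema value in 6 and blastema 2 in 1. The same array was lowest in 833 of the 1105 genes called higher among all genes (75.4%), so this order was also seen in most genes that rose outside the 33. Calls of the 7 genes differed in how they withstood the omission of 1 array. Adamts12, Adam12, Adamts9 and Adamtsl1 passed in each of the 7 omissions, with adjusted p of at most 0.0225, 0.0101, 0.0185 and 0.0437. Adamts18 was lost only without blastema 3 (adjusted p = 0.0583, range 0.0132 to 0.0583). Adam8 kept its call in 2 of 7 omissions (without uninjured 1 or blastema 1) and Adamts7 in 2 (without uninjured 1 or 2), with adjusted p of 0.0237 to 0.12 and 0.0154 to 0.105. Adamts6 kept it in 1, without blastema 1, with a range of 0.0192 to 0.101.

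**Figure D2:**
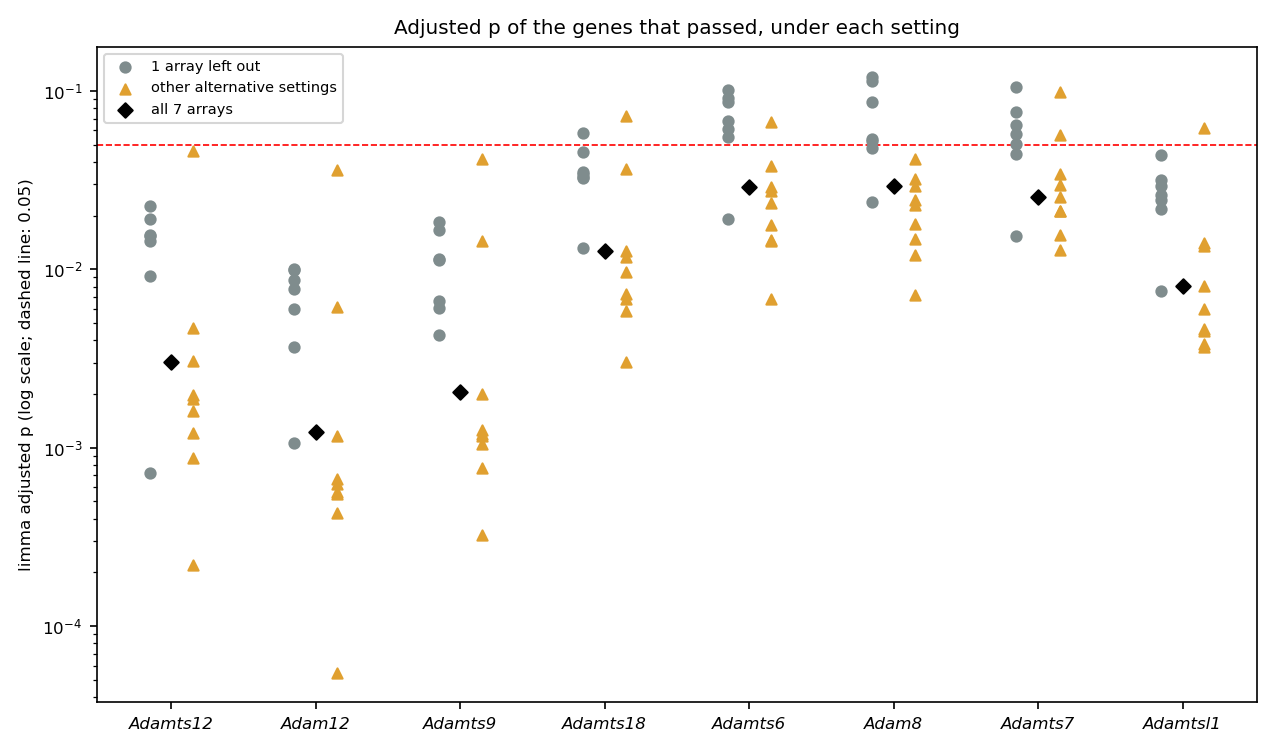
Limma adjusted p on a log scale (vertical axis) for the 8 genes that passed the test (horizontal axis). Black diamonds are all 7 arrays, grey circles leave out 1 array each, yellow triangles are the other alternative settings, and the dashed line is the threshold of 0.05. Adamts12, Adam12 and Adamts9 lie under the line in all 16 alternatives, and most grey circles of Adamts6, Adam8 and Adamts7 lie above it.

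The sequence before the start of a gene is where general promoter elements lie. The RefSeq promoter table of GRCm38.p6 held 20 of the 33 genes, among them 4 that rose, Adamts12, Adamts9, Adamts18 and Adam8. The 250 bases before their starts are shown 5′ to 3′ on the gene's strand, with Adamts1, which did not pass, for comparison. Capitals mark matches on either strand to a TATA box (TATAAA), a GC box (GGGCGG), an AP-1 site (TGANTCA) or a RUNX site (TGTGGT).
Adamts12 (chr15:11064523-11064772, plus strand): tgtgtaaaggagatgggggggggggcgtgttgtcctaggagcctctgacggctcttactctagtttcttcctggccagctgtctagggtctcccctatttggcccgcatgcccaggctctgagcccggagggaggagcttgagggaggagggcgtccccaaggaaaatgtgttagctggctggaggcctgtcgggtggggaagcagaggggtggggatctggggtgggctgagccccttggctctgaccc
Adamts9 (chr6:92943535-92943784, minus strand): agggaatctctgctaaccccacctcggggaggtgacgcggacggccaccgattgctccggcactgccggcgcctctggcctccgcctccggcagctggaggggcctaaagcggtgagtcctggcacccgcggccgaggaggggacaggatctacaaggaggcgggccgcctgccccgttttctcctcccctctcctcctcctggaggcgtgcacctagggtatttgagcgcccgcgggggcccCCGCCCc
Adamts18 (chr8:113848840-113849089, minus strand): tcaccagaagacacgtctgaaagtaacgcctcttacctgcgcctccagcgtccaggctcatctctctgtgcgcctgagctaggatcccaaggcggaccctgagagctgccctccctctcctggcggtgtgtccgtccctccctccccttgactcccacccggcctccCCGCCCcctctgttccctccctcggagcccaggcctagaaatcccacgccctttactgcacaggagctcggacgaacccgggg
Adam8 (chr7:139992563-139992812, minus strand): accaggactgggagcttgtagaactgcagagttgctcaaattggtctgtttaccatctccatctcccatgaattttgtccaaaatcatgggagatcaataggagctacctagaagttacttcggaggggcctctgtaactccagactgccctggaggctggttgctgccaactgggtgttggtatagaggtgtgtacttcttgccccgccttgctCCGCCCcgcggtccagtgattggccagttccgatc
Adamts1 (chr16:85803114-85803363, minus strand): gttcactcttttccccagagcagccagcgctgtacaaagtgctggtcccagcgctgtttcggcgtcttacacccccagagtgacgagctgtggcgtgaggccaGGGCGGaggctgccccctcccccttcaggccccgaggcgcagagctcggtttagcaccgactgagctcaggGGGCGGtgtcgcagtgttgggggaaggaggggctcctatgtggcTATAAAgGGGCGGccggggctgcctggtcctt
The Adamts9, Adamts18 and Adam8 windows each held 1 GC box, ending 2, 78 and 30 bases before the start, and the Adamts12 window held none of these letters. The Adamts1 window held a TATA box 32 to 27 bases before the start and GC boxes that began 147, 76 and 25 bases before it. Among 32851 promoters, 32.7% held a GC box, 12.4% a TATA box, 6.7% an AP-1 site and 14.0% a RUNX site. Of the 22 promoters of ADAM and ADAMTS genes, 14 held a GC box, 2 a TATA box, 1 an AP-1 site and 2 a RUNX site. G and C made up 71.2% of the Adamts9 window, 65.6% of Adamts1, 65.2% of Adamts18, 63.2% of Adamts12 and 52.8% of Adam8, against a median of 52.4% over all promoters.

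Among the other 6 proteoglycan-cutting genes, none passed the limma test, and 1 of them (Adamts4) had an unadjusted p under 0.05, against 24.9% of all genes. Adamts4, an aggrecanase, measured 5.93, 5.60 and 6.13 in blastemas and 5.49, 5.48, 5.47 and 5.24 in uninjured digits. The groups did not overlap and every uninjured value lay under the background level, but the difference of 0.47 (95% interval 0.16 to 0.78) missed the threshold (limma adjusted p = 0.073, passing in 3 of 16 alternatives, among them the omission of blastema 2, range 0.0395 to 0.213). Adamts5, the other main aggrecanase of mouse cartilage, measured 5.40, 5.33 and 6.38 in blastemas and 5.29, 5.40, 4.59 and 5.43 in uninjured digits. Blastema 3 stood above all other arrays, and the remaining values overlapped and lay under the background level, with a difference of 0.53 (-0.19 to 1.25, adjusted p = 0.343). Adamts1, a protease of ovulation and vessels that is the neighbour of Adamts5 on chromosome 16, measured 6.79, 6.72 and 7.80 in blastemas and 6.26, 6.88, 6.68 and 6.96 in uninjured digits. Here too blastema 3 alone lay above the uninjured digits, and the difference was 0.41 (-0.27 to 1.09, adjusted p = 0.433). Without blastema 3 the log2 difference was 0.06 for Adamts1 and 0.19 for Adamts5. Adamts20 (0.10, -0.07 to 0.27), Adamts15 (-0.05, -0.24 to 0.13) and Adamts8 (-0.05, -0.25 to 0.14), with limma adjusted p of 0.441, 0.727 and 0.733, had no group mean above the background level, so they were at the limit of what the arrays measure.

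**Figure D3:**
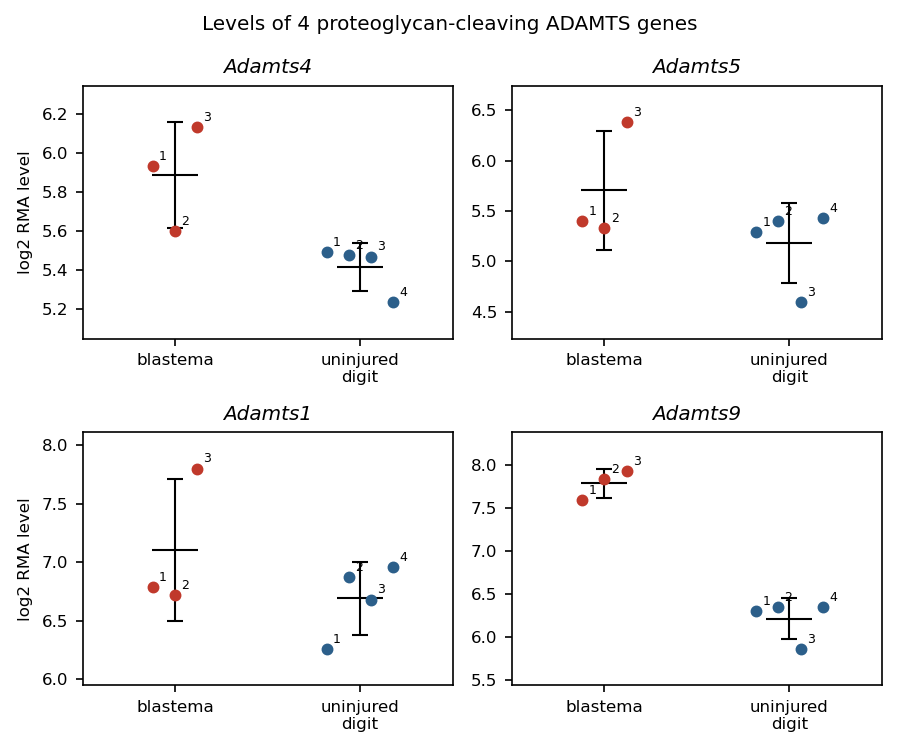
Log2 RMA levels (vertical axis, a separate scale for each gene) of Adamts4, Adamts5, Adamts1 and Adamts9 in 3 blastemas (red, left) and 4 uninjured digits (blue, right), with the mean ± SD and replicate numbers. Adamts9 is separated by group, while blastema 3 stands apart from blastemas 1 and 2 in Adamts1 and Adamts5.

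The procollagen-trimming genes Adamts3 and Adamts14 did not pass. Adamts3 measured 5.16, 5.52 and 5.62 in blastemas and 5.16, 4.92, 5.01 and 5.16 in uninjured digits, so blastema 1 equalled the highest uninjured value. Its difference was 0.37 (95% interval 0.08 to 0.66, limma adjusted p = 0.113), with both group means under the background level, and it passed without blastema 1 (adjusted p = 0.0258, range over single omissions 0.0258 to 0.321). Adamts14 differed by 0.10 (-0.12 to 0.32). Fibrillar procollagen genes, listed without regard to which enzyme trims each chain, rose in 7 of 8 cases, with a median log2 fold change of 2.37. The one that did not pass was Col2a1 (0.33, limma adjusted p = 0.117). Col1a1 (3.48 ± 0.27 SE) and Col1a2 (3.35 ± 0.28), the chains of type I collagen, and Col11a1 (2.80 ± 0.19), a cartilage and fibril-nucleating collagen, rose most. Adamts13, which cuts von Willebrand factor, differed by -0.03 (-0.36 to 0.30) with both means under the background level, and its substrate gene Vwf by 0.04 (-0.26 to 0.34).

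Of the remaining 4 microfibril-associated and orphan proteases, Adamts10 came closest to the threshold. Adamts10, which binds fibrillin and is mutated in human Weill-Marchesani syndrome, measured 6.44, 6.55 and 6.65 in blastemas and 6.23, 6.02, 5.70 and 6.33 in uninjured digits. The groups did not overlap, with a difference of 0.48 (95% interval 0.12 to 0.83, limma adjusted p = 0.101). Adamts17, tied to the same human syndrome family, differed by 0.17 (0.01 to 0.32, adjusted p = 0.175) with blastemas at 6.22 to 6.42 and uninjured digits at 6.11 to 6.18. Adamts19 differed by -0.05 (-0.21 to 0.11, adjusted p = 0.721) under the background level.

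Of the other ADAMTS-like genes, Adamtsl3 had the largest difference, in the direction opposite to that of Adamtsl1. Adamtsl3, which encodes punctin-2, measured 5.92, 6.52 and 6.71 in blastemas and 5.66, 5.92, 5.49 and 5.69 in uninjured digits. Blastema 1 had the same value as the highest uninjured digit, and the difference of 0.70 (95% interval 0.24 to 1.15) missed the threshold (limma adjusted p = 0.0689). It passed without blastema 1 (adjusted p = 0.0119), and in 6 of 16 alternatives in all, with adjusted p from 0.0119 to 0.216. Adamtsl4 (0.14, -0.14 to 0.41), Adamtsl5 (0.12, -0.07 to 0.31) and Adamtsl2 (0.04, -0.08 to 0.17), whose human counterpart is mutated in geleophysic dysplasia, differed by smaller amounts (limma adjusted p = 0.518, 0.427 and 0.677).

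The widely expressed sheddases differed little. Adam10, which cuts Notch receptors, measured 8.86, 9.07 and 9.10 in blastemas and 8.54, 8.89, 8.75 and 8.81 in uninjured digits, a difference of 0.27 (95% interval 0.03 to 0.50, limma adjusted p = 0.158). Adam17, which releases tumour necrosis factor and several epidermal growth factor receptor ligands, measured 7.50, 7.81 and 7.66 in blastemas and 7.65, 7.98, 7.83 and 7.86 in uninjured digits. The values overlapped, with a difference of -0.18 (-0.42 to 0.07, adjusted p = 0.349). The intervals of both genes exclude a change as large as that of Adam12. Adam9 (0.19, -0.03 to 0.40), Adam19 (0.20, -0.04 to 0.44), Adam15 (0.09, -0.06 to 0.24) and Adam33 (-0.06, -0.20 to 0.08) did not pass either, with limma adjusted p of 0.268, 0.281, 0.419 and 0.597. Over all 25 genes that did not pass, the 95% interval lay within 1 log2 unit of zero in 22, the exceptions being Adamtsl3, Adamts5 and Adamts1.

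Adam22 and Adam23 lack protease activity and act as receptors for secreted LGI proteins, and in mouse nerves Adam22 binds Lgi4 from Schwann cells during myelination. Adam22 measured 5.61, 5.91 and 6.03 in blastemas and 5.61, 5.61, 5.08 and 5.33 in uninjured digits. The lowest blastema lay 0.01 above the highest uninjured digit, and the difference was 0.45 (95% interval 0.07 to 0.82, limma adjusted p = 0.134) with the uninjured mean of 5.41 under the background level. Adam23 differed by -0.08 (-0.21 to 0.05) with both means under the background level. None of the 4 LGI ligand genes passed, with 0 at an unadjusted p under 0.05 (limma), against 24.9% of all genes. Lgi4 differed by -0.08 (-0.27 to 0.11), and Lgi2, with the smallest p of the 4, by -0.20 (adjusted p = 0.219). Of 6 measured Schwann cell markers, Erbb3 fell and 5 did not pass, and S100b and Cdh19 were at or under the background level in both groups. Among the 5, the myelin gene Mbp differed by -0.42 (95% interval -0.74 to -0.11, limma adjusted p = 0.09945), and its groups did not overlap. Erbb3 was the brightest of the 6, with means of 8.26 in blastemas and 8.85 in uninjured digits. Sox10 lay close to the background level, at 5.50 and 5.55. Which cells gave the Erbb3 signal was not tested.

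**Figure D4:**
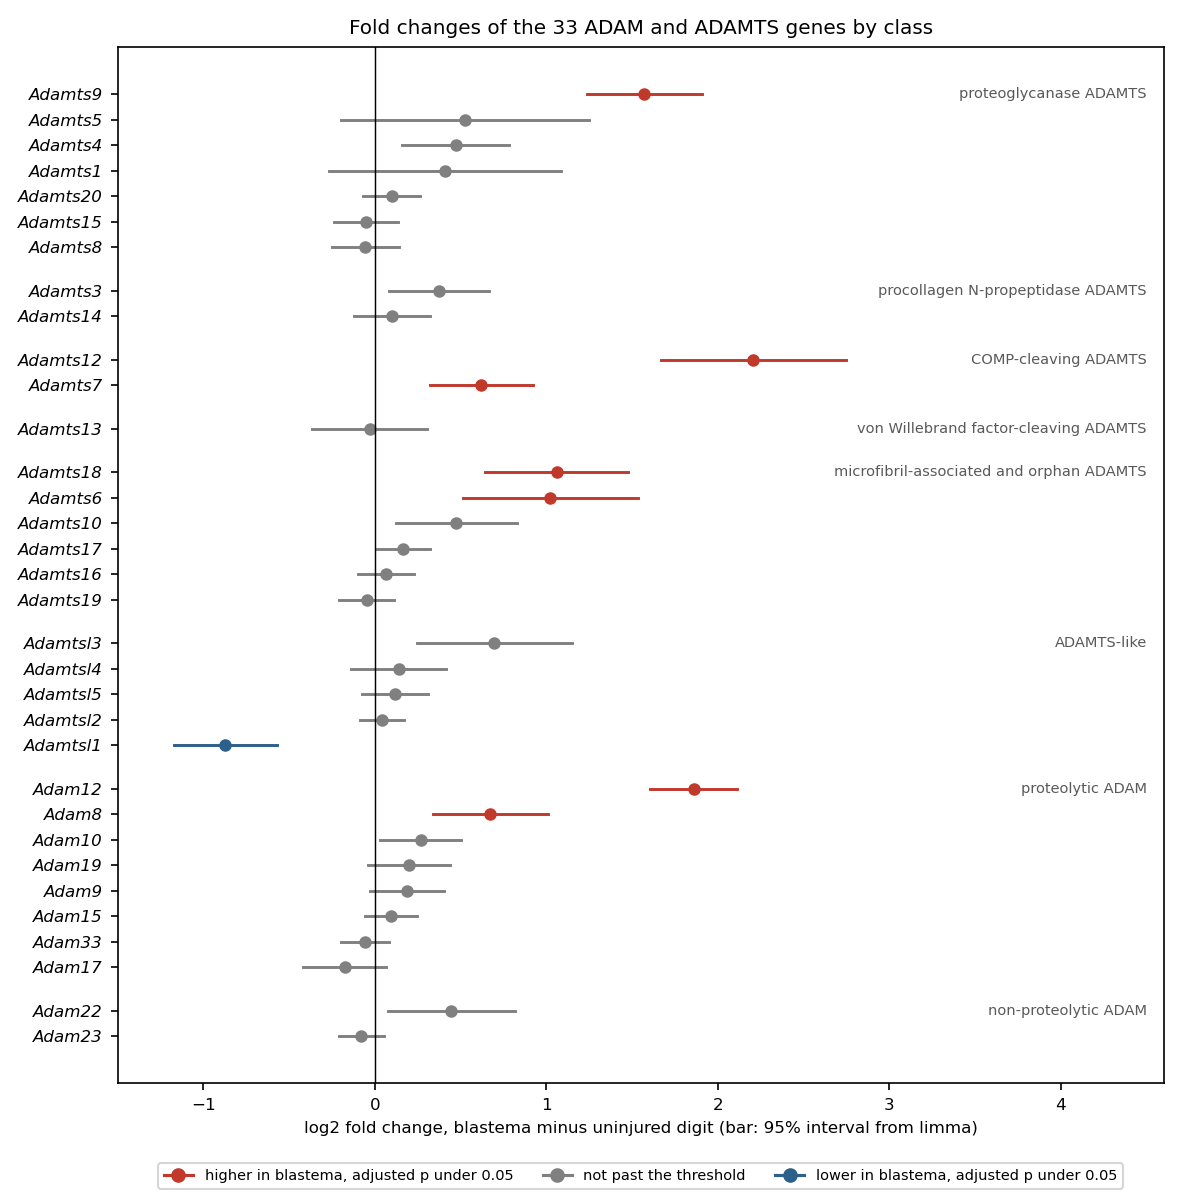
Log2 fold change of blastema minus uninjured digit (horizontal axis) for the 33 genes, grouped by class from top to bottom. Points are limma estimates and bars are 95% intervals, with genes higher in blastema in red, lower in blue and those past no threshold in grey. The 7 genes that rose come from 4 classes, and the estimates run from -0.87 for Adamtsl1 to 2.21 for Adamts12.

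Genes that act with these proteases were examined through 11 lists of substrates, inhibitors, activating enzymes and partners. Of 86 measured genes in these lists 29 rose (33.7%) and 2 fell, against 4.98% and 4.66% of all genes. Their median was 0.26 on the log2 scale, against -0.01 over all genes. Of 9 proteoglycan genes 5 rose (median 0.73), led by Acan, the aggrecan gene (2.76 ± 0.34 SE), Bgn, the biglycan gene (1.97 ± 0.17), and Hspg2, the perlecan gene (1.44 ± 0.12). Vcan, which encodes the versican cut by Adamts9, rose by 1.34 ± 0.23 (limma adjusted p = 0.0129). Of 10 matrix glycoprotein and microfibril genes 5 rose (median 0.93), with the largest changes in Thbs1 (2.91 ± 0.21) and Thbs2 (2.83 ± 0.24), which encode thrombospondins, and in Fn1, the fibronectin gene (2.86 ± 0.39).

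The list of TIMPs and other inhibitors moved unevenly. The fibulin genes Fbln1 and Fbln5 were counted in it too, although they encode matrix proteins rather than established inhibitors. Of its 8 measured genes 4 rose, with a median log2 fold change of 0.45 over the list. The 4 were the inhibitor genes Timp1 and Timp2, and Fbln1 and Fbln5. The inhibitor genes A2m (0.06), Timp4 (0.01) and Reck (-0.05) did not pass, and A2m and Timp4 had both means under the background level. Timp1 rose by 2.55 ± 0.23 (SE, limma adjusted p = 0.00194), with all 4 uninjured values (4.99 to 5.40) under the background level. Fbln5, an elastic fibre gene, rose by 1.54 ± 0.18, and Timp2 by 1.30 ± 0.12. Timp3, the inhibitor best known for blocking ADAMTS aggrecanases and ADAM17, differed by 0.26 ± 0.15 (adjusted p = 0.329). Both enzymes that add sugar to thrombospondin repeats, a step that aids secretion of several ADAMTS proteins, rose. Pofut2, which attaches fucose, rose by 1.12 ± 0.13 (adjusted p = 0.00385), and B3glct, which extends it with glucose, by 1.08 ± 0.19 (adjusted p = 0.016). Of 4 convertases that remove inhibitory pro-domains Pcsk5 rose (0.86 ± 0.13), and Furin differed by 0.18 ± 0.06 (adjusted p = 0.14).

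Among partners of the sheddases, none of the 9 chaperone genes of Adam10 and Adam17 passed (limma, 0 at an unadjusted p under 0.05, median -0.01), and Frmd8, with the smallest p, differed by 0.13 (adjusted p = 0.379). Among 24 sheddase substrate genes, 5 were higher and 2 lower (median 0.25 on the log2 scale). Cdh2, the N-cadherin gene, rose by 2.78 ± 0.21, and Igfbp5, whose protein human ADAM12 cuts, by 0.94 ± 0.18 (limma adjusted p = 0.0215). Nrg1, a ligand precursor that acts on Schwann cells, rose by 0.66 ± 0.15 (adjusted p = 0.0383). The 2 that fell were the interleukin-6 receptor gene Il6ra (-0.53 ± 0.08, adjusted p = 0.01) and Notch1 (-0.40 ± 0.07, adjusted p = 0.0126). In the remaining lists no gene passed limma, with Lrp1, a receptor that clears ADAMTS proteins (0.49, adjusted p = 0.0522), and the papilin gene Papln (-0.38, adjusted p = 0.0656) having the smallest p. At an unadjusted p under 0.05 (limma), 2 of the 3 clearance and cofactor genes and 1 of 5 further superfamily genes counted, against 24.9% of all genes.

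**Figure D5:**
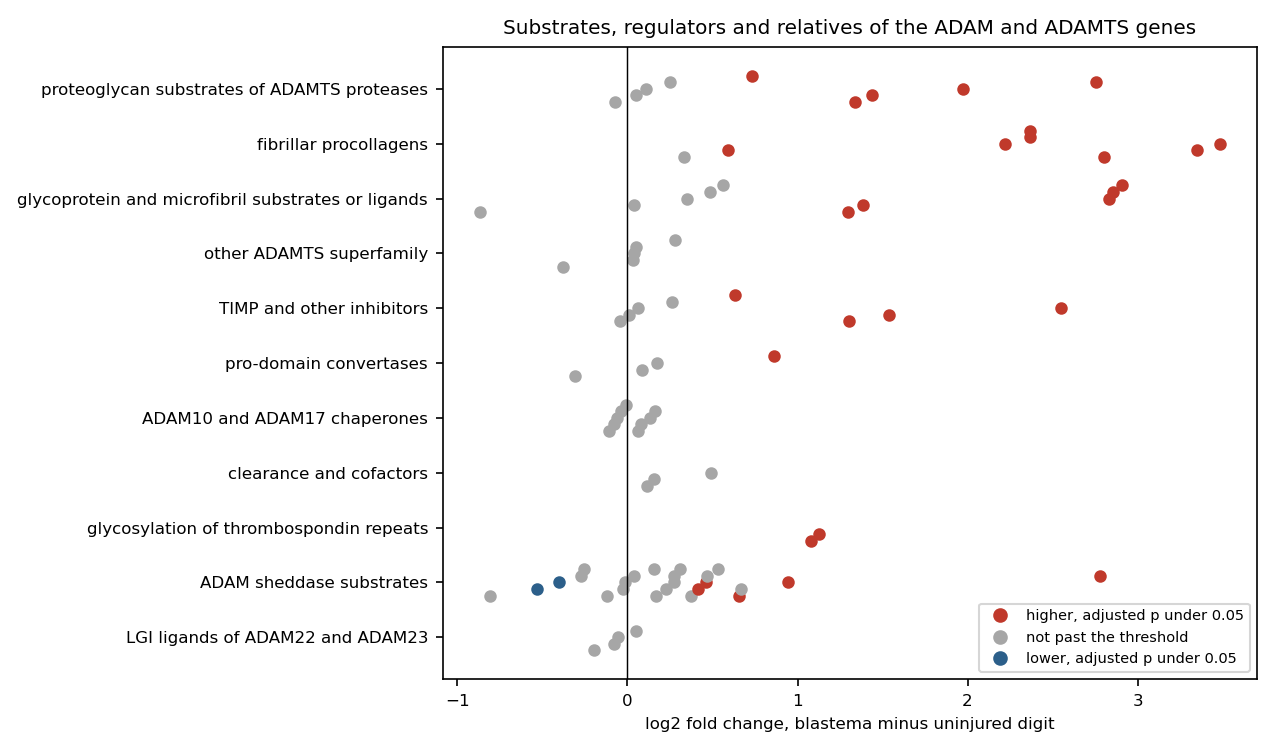
Log2 fold change of blastema minus uninjured digit (horizontal axis) for the 86 related genes, 1 point a gene, in 11 lists. Red points rose, blue points fell and grey points did not pass at an adjusted p of 0.05. Red points gather in the proteoglycan, procollagen, glycoprotein, inhibitor and glycosylation lists, and the chaperone points all lie close to zero.

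Markers of several cell types differed between the groups along with these genes. Of all genes, 4.98% were called higher and 4.66% lower. Of 6 measured osteoblast markers 6 rose, and their summed level (antilog RMA units) was 4883 to 7588 in blastemas against 232.9 to 508.7 in uninjured digits. Of 8 osteoclast markers 7 rose (2091 to 4709 in blastemas, 488.2 to 554.8 in uninjured digits), with Calcr at or under the background level in both groups. Of 9 fibroblast markers 6 rose (9387 to 13400 in blastemas, 1569 to 3292 in uninjured digits). Chondrocyte markers rose in 2 of 10 (1362 to 1546 in blastemas, 867.1 to 1007 in uninjured digits), with Matn1, Col9a1 and Cnmd at or under the background level. The 2 were Hapln1 and Sox9, and Sox9, with a blastema mean of 9.45, was the brightest of the 10. The median log2 fold change of the chondrocyte list was 0.05. Macrophage markers rose in 4 of 8 (1333 to 1778 in blastemas, 836.1 to 1039 in uninjured digits) and endothelial markers in 2 of 8 (940.5 to 1565 in blastemas, 565.7 to 853.8 in uninjured digits). Pericyte and smooth muscle markers rose in 4 of 8, with summed levels that overlapped between groups (3270 to 5438 in blastemas, 1506 to 3299 in uninjured digits). Of 6 tendon markers Fmod rose and Thbs4 fell (summed level 1767 to 2560 in blastemas, 955.5 to 1542 in uninjured digits). Fmod, with a blastema mean of 10.74, makes up most of the blastema sum. The mean log2 level of the 6 tendon markers overlapped between groups (6.96 to 7.30 in blastemas, 6.76 to 7.59 in uninjured digits). Sweat gland markers fell in 2 of 5 (339.6 to 352.9 in blastemas, 482.2 to 602.9 in uninjured digits), with Krt77 at or under the background level. Suprabasal keratinocyte markers fell in 6 of 8 (21960 to 23350 in blastemas, 28760 to 36390 in uninjured digits). Of 5 measured basal keratinocyte markers 1 fell, and of 7 nail and hair markers 1 fell. None passed among the 6 neutrophil, 4 measured lymphocyte, 5 skeletal muscle and 5 adipocyte markers. The part of the marker shifts in the changes of the ADAM and ADAMTS genes was not tested.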

How the data were processed

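The authors deposited log2 values made with oligo and RMA, per the submitters' processing notes, and versions, settings, batches and array design are not stated in those sources. The table held 41345 probe sets, with array medians between 5.53 and 5.58. Read depth does not apply to arrays, and their number limits the precision. Genes came from the 23521 probe sets with 1 symbol in the platform annotation, the brightest being used. Adam15, Adam19, Adamts8 and Adamts14 had another probe set each, with differences of -0.002 to 0.099. All 33 symbols matched RefSeq by Entrez identifier. The background level, 5.52, was set at percentile 95 of the means of 1105 olfactory receptor genes.

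The test was limma 3.58.1 (R 4.3.3), lmFit and eBayes, blastema minus uninjured over 7 arrays, with no covariate or filter and two-sided p-values adjusted by Benjamini-Hochberg over 22180 genes. The fit was tested on simulated data. Genes that passed are given array by array. Up to 3 called genes of each related list, or the one with the smallest p, are named, and Vcan, Comp, Vwf, Timp3, Furin, Il6ra, Notch1, Lgi4 and the cell type markers named were added after their values were seen. The genes, lists and alternatives were chosen with earlier results of these data known. The 16 alternatives were a replicate block, 2 level filters, the mean of probe sets, a variance trend, array weights, 2 scalings and omissions of arrays. Figures used Python 3.11.15 and matplotlib 3.10.9.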

Additional observations from a re-analysis of the deposited data

Results flagged for a closer look

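In 6 of the 33 genes, 1 of the 4 uninjured digits lay far from the other 3, by Dixon's test for an outlying value at its 95% level. The test's nominal rate is about 1 in 20 groups, but the same test marked 17.7% of all genes in these uninjured digits, against 18.8% of the ADAM and ADAMTS genes it could be run on. The nominal rate assumes values without ties, and Adam15 and Adamts8 hold exactly repeated values. Uninjured digit 3 was the low one in 4 of them. It measured 5.87 for Adamts9 (6.31 to 6.35 in the other 3), 4.59 for Adamts5 (5.29 to 5.43), 4.68 for Adamts8 (4.81 to 4.82) and 8.44 for Adam15 (8.49 in each of the other 3). Uninjured digit 2 measured 4.96 for Adamts7 (5.41 to 5.44), and uninjured digit 4 measured 5.24 for Adamts4 (5.47 to 5.49). Without uninjured digit 3 the log2 fold change of Adamts9 was 1.45 (adjusted p = 0.0061), and without uninjured digit 2 that of Adamts7 was 0.50 (adjusted p = 0.0154).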

How the results depend on the processing

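With 1 array omitted, 3 to 8 ADAM and ADAMTS genes were higher and 1 was lower, against 7 and 1 with all arrays. Related genes then numbered 21 to 31 higher and 2 to 3 lower, against 29 and 2. With the replicate number as a block, 4 ADAM and ADAMTS genes were higher and 0 lower (limma), 18 related genes were higher and 0 lower, and 599 of all genes were called in place of 2139. No blastema carries number 4, so uninjured digit 4 does not enter the difference under the block. The Adam12 difference was 1.8273 both under the block and without uninjured digit 4. Without uninjured digit 4 and with no block, 1244 of all genes were called. Same-numbered arrays had deviations that correlated at 0.286, 0.151 and -0.065, which does not meet the rule for pairing. Blastemas 1 and 2 correlated best with their own number, and blastema 3 with uninjured 4 (0.14). Under the block Adamts18, Adamts6, Adamts7 and Adamtsl1 did not pass (adjusted p = 0.0724, 0.0668, 0.0565 and 0.062). Lower related genes numbered 5 with either level filter and with array weights, 4 with array median scaling and 1 with reference gene scaling. Over the 16 alternatives Adamts12, Adam12 and Adamts9 passed in each, and the direction of the 8 genes that passed with all arrays never turned. Direction turned only in genes near zero, each with a high adjusted p and no call. Adamts13 became 0.0229 with array weights and 0.0738 without both arrays numbered 1, and ran from -0.1378 to 0.0842 over single omissions. Adamts16 became -0.0024 without both arrays numbered 1, and single omissions gave -0.0024 (without blastema 1) to 0.1072. They gave -0.1356 to 0.0019 for Adamts15 and -0.0983 to 0.0284 for Adamts8, in both cases with the sign turned without blastema 3. All genes called numbered 845 (without blastema 3) to 2295 (without blastema 1) over single omissions. The cause was not tested. Dim signal limits 7 of the 33 genes, which had no group mean above the background level.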

Other observations

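Identical levels on several arrays were common in the deposited table. In 15 of the 33 ADAM and ADAMTS genes at least 2 arrays had exactly the same value, and in 11739 of all 22180 genes (52.9%). Adamts16 had 1 value, 5.60, on all 4 uninjured digits, and Adamts13, Adamts19 and Adam15 also had a value shared by 4 arrays. None of the 8 genes that passed the test held such a repeat. In genes with repeats the spread within a group, and so the SE, comes from fewer distinct values.

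Adamts1 and Adamts5, neighbours on chromosome 16, shared blastema 3 as their highest array, at 7.80 and 6.38. This was not particular to the pair, since blastema 3 was also highest for Adamts12, Adam12, Adamts9 and other members. The mean deviation of the 33 genes from their own means was 0.32 in blastema 3, 0.22 in blastema 2 and 0.11 in blastema 1. Adamts15 and Adamts8, neighbours on chromosome 9, both had group means under the background level.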
